A study of Chlamydomonas reinhardtii with 9 samples.

Results

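The mitochondrial alternative oxidase genes of the green alga Chlamydomonas reinhardtii were followed on 9 spotted arrays of total RNA. They were taken by their spot numbers. Spots 4 to 6 carry CHLRE_09g395950v5 and spots 7 to 9 carry CHLRE_03g169550v5, which makes 2 of the 71 probes on the array, a probe being 3 consecutive spots. The array annotation gives these locus tags; the usual names of the loci, AOX1 for CHLRE_09g395950v5 and AOX2 for CHLRE_03g169550v5, are used from here on. The rule that takes them uses spot numbers and no measured value.

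Alternative oxidase sits in the inner mitochondrial membrane and passes electrons from ubiquinol straight to oxygen. This route bypasses the cytochrome pathway and its proton pumping, so electrons can be disposed of with little ATP made. In C. reinhardtii both genes are nuclear. AOX1 is known as the member that responds to the nitrogen source and to stress, and AOX2 as a lowly and more steadily expressed member. The alga can export reductant from its chloroplast to its mitochondria, where alternative oxidase is one of the places it can be used.

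Each array compared a pair of RNAs. On 3 arrays the nonphotosynthetic mutant mcd1-1 was set against wild type (strain P17), on 3 arrays the nonphotosynthetic mutant mcd1-2 was set against the same wild type, and on 3 arrays the photosynthetic suppressor mcd2-1 was set against mcd1-2. MCD1 is known as a nuclear factor that keeps the chloroplast petD transcript, for subunit IV of the cytochrome b6f complex, from being degraded, and the labels mark all the arrays with petD mutant as a keyword. The labels do not say which mcd1 allele the suppressor carries, nor do they give growth conditions or whether the arrays numbered 1 to 3 came from separate cultures, so p-values measure how these arrays vary, which can be technical variation. In RNA of whole cultures, fewer cells making a transcript and less of it per cell cannot be told apart.

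Values are log ratios of the 2 channels, taken as log2, averaged over 3 spots, with each array's median over the 71 probes subtracted. A value of 0 is thus the level change of the middle probe on that array, and fold changes rest on the assumed base. The direction was read from the order of the labels (mutant over wild type, suppressor over mutant). It is likely and not certain, because no source used here names the dyes. Across all probes, arrays of one comparison correlated at 0.541 to 0.898 for mcd1-1 and at 0.552 to 0.725 for mcd1-2. Suppressor replicates 1 and 2 correlated at -0.314, replicates 1 and 3 at -0.109, and replicates 2 and 3 at 0.125. Turning an array changes the sign of such a correlation and not its size, so these arrays agreed little in either direction. The direction of the suppressor arrays is thus not settled, and their means, spreads and ranks are also given with replicate 1 turned in sign. Both oxidase probes had a value on all 3 spots of every array. Replicate 2 of mcd1-1, replicate 3 of mcd1-2 and replicate 3 of the suppressor lacked the same 4 other probes, and values on these arrays are given apart below. No probe named here is petD or MCD1, so the strain labels were not checked against those genes.

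The first comparison asked how the oxidase transcripts stood in mcd1-1. AOX1 had log2 ratios of 1.13, -0.70 and -0.48 on replicates 1, 2 and 3. Replicate 1 was high and the other arrays were low, so the arrays did not share a direction. The mean was -0.01 ± 1.00 (SD, n = 3), with a 95% interval from -0.87 to 0.85 (limma adjusted p = 0.987). AOX2 had log2 ratios of 0.69, -0.57 and -0.54 on the same arrays. It too was high on replicate 1 and low on the others, with a mean of -0.14 ± 0.72 (SD, n = 3), an interval from -0.95 to 0.67 and a limma adjusted p of 0.965. On replicate 1 AOX1 was the second highest and AOX2 the tenth highest of 71 probes. On replicate 2 they ranked 59 and 56 from the top of 67 probes with a value, and on replicate 3 they ranked 60 and 62 of 71.

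The spread between these arrays was wide for both genes. The SD over the 3 arrays was the fourth largest of 71 probes for AOX1 and the tenth largest for AOX2, against a median SD of 0.349 over all probes. The 4 probes without a value on replicate 2 enter this ranking with an SD over 2 arrays. Without replicate 1 the means were -0.59 for AOX1 and -0.55 for AOX2. On the array that lacked the 4 probes AOX1 stood at -0.70 against a mean of 0.33 on the other 2 arrays, and AOX2 at -0.57 against 0.08. Neither gene kept one sign on all 3 arrays, which 43.3% of probes with 3 values did (29 of 67). Neither passed the limma test, adjusted or unadjusted, while 1.41% of probes passed it with adjustment and 8.45% without. For AOX1 the interval reached from 1.83-fold lower to 1.80-fold higher than wild type, and for AOX2 from 1.93-fold lower to 1.59-fold higher. The fit pools the spread of all 3 comparisons, so these intervals may be too narrow for mcd1-1.

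**Figure D1:**
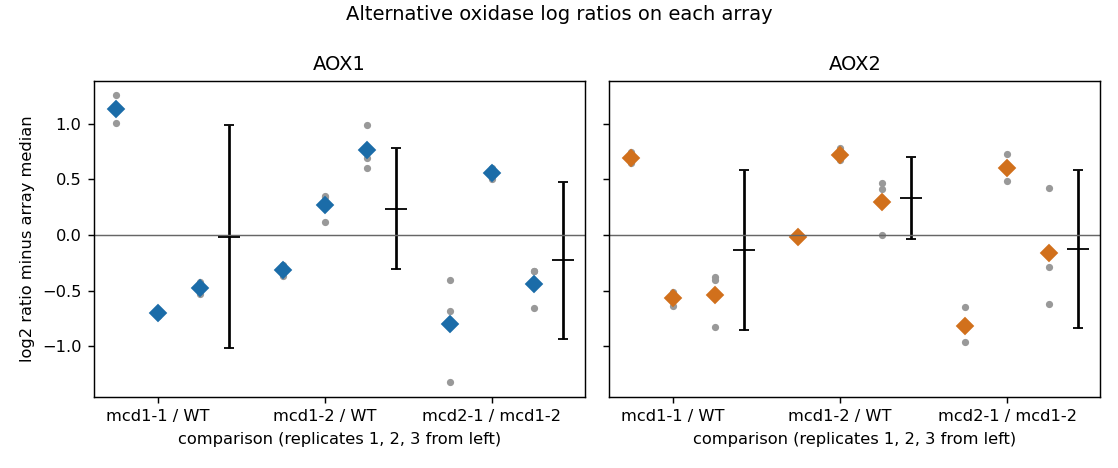
Log2 ratio after subtraction of the array median (vertical axis) of AOX1 (left) and AOX2 (right) on each array, with replicates 1, 2 and 3 from left to right in each comparison. Grey points are single spots, coloured diamonds are means of 3 spots, and the black bar is the mean ± SD of the 3 arrays. In mcd1-1 both genes are high on replicate 1 (1.13 and 0.69) and low on the others.

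In mcd1-2, the second mutant, the same question gave means slightly above 0 that did not pass the test. AOX1 had log2 ratios of -0.32, 0.27 and 0.76 on replicates 1, 2 and 3. Replicate 1 lay below 0 and the others above it, with a mean of 0.24 ± 0.54 (SD, n = 3), an interval from -0.62 to 1.10 and a limma adjusted p of 0.857. AOX2 had log2 ratios of -0.02, 0.72 and 0.29. Replicate 1 lay next to 0 and the others above it, with a mean of 0.33 ± 0.37 (SD, n = 3), an interval from -0.48 to 1.14 and a limma adjusted p of 0.857. The upper ends of the intervals are rises of 2.14-fold for AOX1 and 2.20-fold for AOX2, so a rise of that size was neither detected nor excluded. Falls beyond 1.54-fold and 1.39-fold lay outside the intervals. These limits rest on a spread pooled over all comparisons and on the assumed direction, so such falls are not called excluded.

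Here the spread of both genes was near that of the other probes. The SDs of 0.54 and 0.37 compare with a median of 0.444 over all probes. The means ranked 20 and 16 from the top of 71 probes. The array that lacked the 4 probes held 0.76 for AOX1 against -0.02 on the mean of the other 2 arrays, and 0.29 for AOX2 against 0.35. Neither gene had one sign on all 3 arrays, as 36.4% of probes with 3 values did. Neither passed the limma test at 0.05, adjusted or not, where 5.63% of probes passed with adjustment and 11.3% without.

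The mutant alleles were compared with each other through the shared wild type. Arrays of the mutants overlapped for both genes. For AOX1 the difference, mcd1-2 minus mcd1-1, was 0.25 on the log2 scale (means of 0.24 and -0.01), with an interval from -0.97 to 1.47 (limma adjusted p = 0.958). For AOX2 it was 0.47 (means of 0.33 and -0.14), with an interval from -0.67 to 1.61 (limma adjusted p = 0.958, unadjusted p = 0.402). Of all probes, 1.41% passed this test with adjustment and 2.82% without, and 16.7% of those with 6 values had groups that did not overlap. Averaged over both mutants, AOX1 stood at 0.11 (interval from -0.50 to 0.72) and AOX2 at 0.10 (interval from -0.47 to 0.67) relative to wild type, with a limma adjusted p of 0.809 for both, where 7.04% of probes passed with adjustment and 15.5% without. Neither had one sign on all 6 arrays, as 18.2% of probes with 6 values did. These were the narrowest intervals of the comparisons, since they rest on 6 arrays. They reached from 1.41-fold lower to 1.65-fold higher for AOX1 and from 1.39-fold lower to 1.59-fold higher for AOX2.

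**Figure D2:**
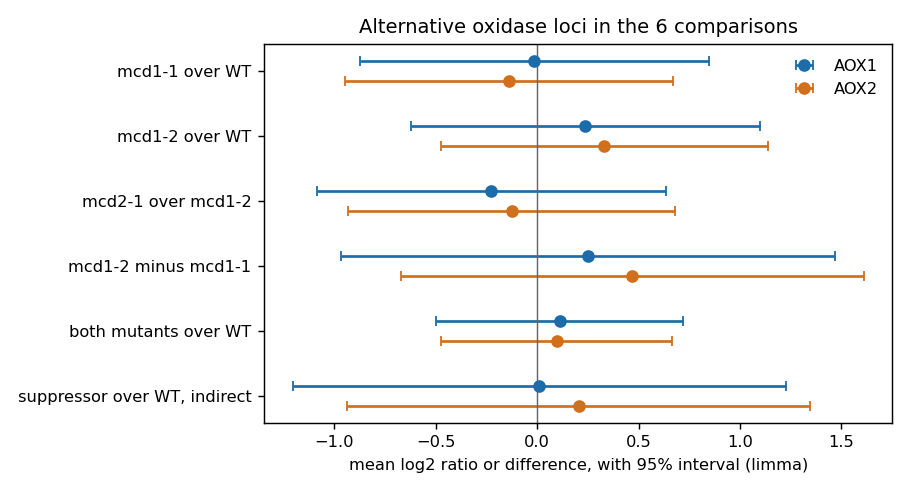
Mean log2 ratio, or difference of log2 ratios, of AOX1 (blue) and AOX2 (orange) in 6 comparisons, with 95% intervals of the limma fit over 9 arrays. The intervals of both genes include 0 in each of the comparisons, and the narrowest, for both mutants over wild type, span -0.50 to 0.72 and -0.47 to 0.67.

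The third comparison asked whether the oxidase transcripts differed between the photosynthetic suppressor and mcd1-2. AOX1 had log2 ratios of -0.80, 0.56 and -0.44 on replicates 1, 2 and 3. Replicate 2 was high and the others were low, with a mean of -0.23 ± 0.70 (SD, n = 3), an interval from -1.09 to 0.63 and a limma adjusted p of 0.878. AOX2 had log2 ratios of -0.82, 0.60 and -0.16, with the same array high. Its mean was -0.13 ± 0.71 (SD, n = 3), with an interval from -0.93 to 0.68 and a limma adjusted p of 0.882. With the sign of replicate 1 turned, the means were 0.31 for AOX1 (limma adjusted p = 0.619) and 0.42 for AOX2 (limma adjusted p = 0.444), so the direction of both depended on that array. The SDs of 0.70 and 0.71 lay below the median of 0.848 over all probes; turned, they were 0.66 and 0.52 against a median of 0.659. Neither gene had one sign on all 3 arrays, as 16.7% of probes with 3 values did. With replicate 1 turned that share was 30.3%, and each gene lay above 0 on 2 of 3 arrays. Neither passed the limma test, which 1.41% of probes passed with adjustment and 8.45% without (4.23% and 21.1% turned).

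On the suppressor array that lacked the 4 probes AOX1 stood at -0.44 and AOX2 at -0.16, against -0.12 and -0.11 on the mean of the other 2 arrays (0.68 and 0.71 turned). Suppressor and wild type were not hybridised together. Their indirect ratio, which adds the mcd1-2 and the suppressor log ratios, was 0.01 for AOX1 (interval from -1.21 to 1.23) and 0.20 for AOX2 (interval from -0.94 to 1.35), with a limma adjusted p of 0.999 for both, where 1.41% of probes passed with adjustment and 7.04% without. With the sign of suppressor replicate 1 turned it was 0.55 and 0.75, with limma adjusted p of 0.631 and 0.368, where 2.82% of probes passed. The mcd1-2 RNA enters both terms of this sum.

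Taken over all 9 arrays, AOX1 and AOX2 lay close to each other. Their centred log2 ratios had the same sign on 9 of 9 arrays, and the root mean square difference between them was 0.299. On mcd1-2 replicate 1 the shared sign rested on the centring, since the deposited means were -0.23 for AOX1 and 0.07 for AOX2. Of the 2485 pairs that the 71 probes form, 2 pairs, both of probes unnamed here, were closer, and the median pair differed by 1.04. Of these probes 60 are unnamed here, and pairs of named nuclear loci were not ranked apart from the rest. Over the 9 arrays AOX1 was the probe most like AOX2, and AOX2 the probe most like AOX1. The root mean square of the ratios themselves was 0.658 for AOX1 and 0.552 for AOX2, against a median of 0.702 over all probes. Of the 71 probes, 28 had smaller ratios than AOX1 by this measure and 17 had smaller ones than AOX2. Probes with small ratios lie closer to each other by construction. These figures describe the arrays and are given without a test. Turning the sign of an array does not change the root mean square difference.

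Within single arrays the difference, AOX2 minus AOX1, was smallest on suppressor replicate 1 at -0.01 and largest in size on mcd1-2 replicate 3 at -0.47. It was -0.44 on mcd1-1 replicate 1, the array on which AOX1 was highest, and 0.45 on mcd1-2 replicate 2. In mcd1-1 the mean difference was -0.12 ± 0.29 (SD, n = 3), in mcd1-2 it was 0.09 ± 0.49, and in the suppressor it was 0.10 ± 0.15 (0.11 with the sign of replicate 1 turned). Exact two-sided sign-flip permutation tests gave p of 0.75, 1 and 0.5, where 3 arrays cannot go below 0.25. Over the 6 mutant arrays the difference was -0.02 ± 0.38 (SD, n = 6), above 0 on 3 of 6 arrays, with p = 0.875 in the exact test, whose smallest possible value is 0.03125. Adjusted by Benjamini-Hochberg over these 4 tests, each permutation p was 1. The adjusted p could not fall below 0.125 in this family, so no unequal change of the genes could have been called after adjustment.

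The closeness varied between the comparisons. It was tightest on the suppressor arrays, with a root mean square difference of 0.158, and 0.362% of pairs were closer there. On the mcd1-1 arrays it was 0.269, with 5.92% of pairs closer, and on the mcd1-2 arrays 0.413, with 13.4% of pairs closer. On the mcd1-2 arrays AOX2 ranked 13 among the probes nearest to AOX1, and AOX1 ranked 10 among those nearest to AOX2. The low share of closer pairs leaned most on the suppressor arrays. Without them 2.82% of pairs were closer, against 0.563% without the mcd1-1 arrays and 0.121% without the mcd1-2 arrays. In each of these sets the genes stayed nearest to each other. On the arrays that lacked the 4 probes the difference was 0.321, with 4.84% of pairs closer and ranks of 3 and 5. On the other 6 arrays it was 0.287, with 0.241% of pairs closer. The probes follow each other in spot number, and their places on the slide were not used here. Over all 70 pairs of probes consecutive in this numbering the median difference was 0.869, and none was smaller than that of AOX1 and AOX2. With a centring on the 10 probes nearest in spot number the difference was 0.319, with 3 pairs closer. Each gene was then the second nearest of the other. The genes are related in sequence, the spotted sequences were not used here, and whether RNA of one gene bound to the spots of the other was not tested.

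**Figure D3:**
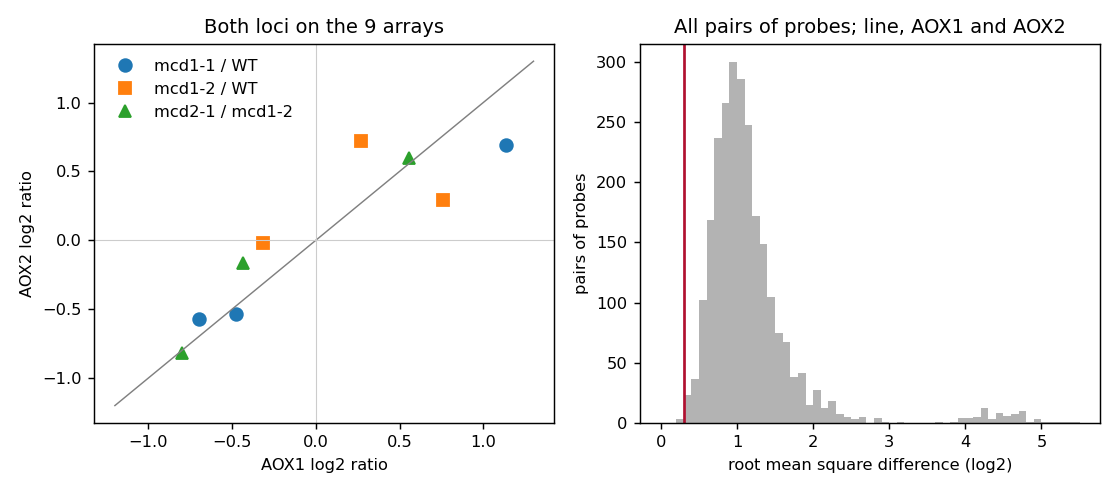
Left, log2 ratio of AOX2 against that of AOX1 on the 9 arrays, with the line of equal values. Right, number of probe pairs (vertical axis) by the root mean square difference of their log2 ratios over the arrays, for 2485 pairs, with the AOX1 and AOX2 pair at the red line (0.299), near the lower end of the distribution.

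After AOX2, the probes most like AOX1 over 9 arrays were CHLRE_11g467569v5, with a root mean square difference of 0.528, and CHLRE_16g671400v5, with 0.542. After AOX1, the probes most like AOX2 were CHLRE_09g396213v5, with 0.421, and the unnamed probe of spots 154 to 156, with 0.448. In spot number CHLRE_16g671400v5 follows directly on AOX2, and the other 3 stand 6 to 49 probes from the gene they resemble. The unnamed probe of spots 1 to 3, which comes directly before AOX1 in spot number, differed from AOX1 by 1.00, near the median pair. It shared the sign of AOX1 on 4 of 9 arrays.

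The oxidase genes were last set beside the 9 other nuclear loci that the annotation names. In mcd1-1, 9 of 9 other loci had means below 0, from -0.65 to -0.01 with a median of -0.31, and the unnamed probes had a median of 0.14. AOX1 at -0.01 was level with the highest of these loci, and AOX2 at -0.14 lay above 5 of 9. In mcd1-2, 7 of 9 other loci had means below 0, with a range from -0.74 to 0.02 and a median of -0.28, and both oxidase means of 0.24 and 0.33 lay above 9 of 9. None of the 9 loci passed the limma test in these comparisons, with or without adjustment. In the suppressor their means ran from -1.38 to 0.50, and each oxidase mean lay above 3 of 9. With suppressor replicate 1 turned, each lay above 6 of 9, and 1 of the 9 loci, CHLRE_12g550850v5, passed the limma test. With the deposited sign 0 of 9 passed with adjustment and 1 without it, CHLRE_03g182551v5 (limma adjusted p = 0.526), whose mean includes a single spot at -13.4.

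On the single arrays of mcd1-2, AOX1 lay above 7, 9 and 8 of the 9 other loci and AOX2 above 9, 9 and 7. On those of mcd1-1, AOX1 lay above 9, 2 and 3 of them and AOX2 above 9, 3 and 3. Set against the median of these 9 loci instead of that of all probes, a choice made after the data were seen, AOX1 stood at 0.62 and AOX2 at 0.71 in mcd1-2, with limma adjusted p of 0.444 and 0.331. In mcd1-1 they stood at 0.19 and 0.07, with limma adjusted p of 0.817 and 0.894. The higher place of the oxidase genes among the nuclear loci named here in mcd1-2 therefore held as a rank on these arrays and did not pass the test. Among all 71 probes their mcd1-2 means ranked 20 and 16 from the top.

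**Figure D4:**
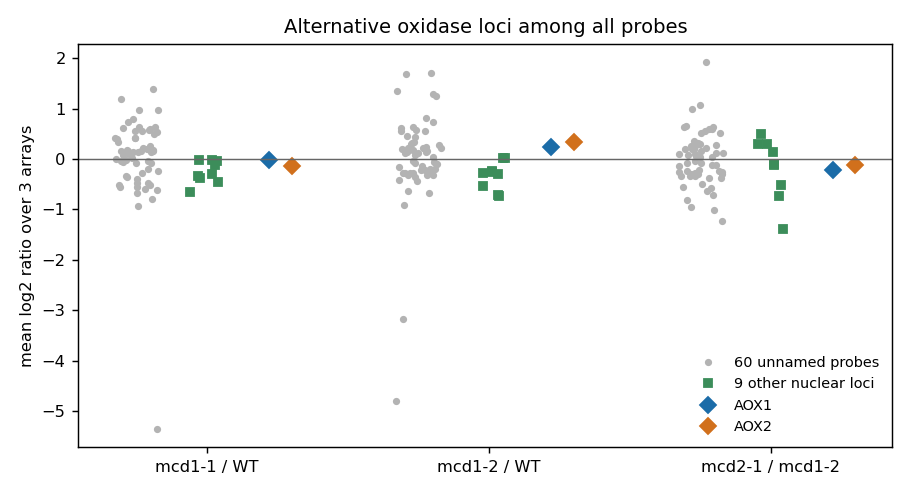
Mean log2 ratio over the 3 arrays of each comparison for the 60 unnamed probes (grey), the 9 other nuclear loci (green) and the oxidase genes AOX1 (blue) and AOX2 (orange). The horizontal scatter within a set has no meaning. In mcd1-2 both oxidase means (0.24 and 0.33) lie above the 9 other loci. The suppressor arrays are drawn with the deposited sign, with oxidase means of -0.23 and -0.13 that become 0.31 and 0.42 with replicate 1 turned.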

How the data were processed

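The deposited table holds log ratios of 2 channels for 213 spots on 9 arrays, made by the authors and taken as log2, since the lowest is -13.4, beyond the 11.1 that natural logs of 16-bit intensities allow. Only 2 spots lie below -10, so the base is an assumption. Precision is limited by the number of arrays and the spread between them. Spot intensities were not used here. How images were read and ratios normalized, and which dyes were used, is not given in the sources used here. Each array gave 197 to 213 spots.

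Spots were averaged by 3, and arrays were centred on their median over 71 probes. The annotation names 11 probes, whose 11 loci matched RefSeq locus tags. It gives locus tags and no products, so other nuclear loci were not grouped by function. One mean per comparison was fitted over 9 arrays with limma 3.58.1 in R 4.3.3 (6 residual and 14.6 prior degrees of freedom), with two-sided p-values adjusted by Benjamini-Hochberg across the 71 probes and called under 0.05. The fit was tested on simulated data. Both genes and the 3 probes most like each (root mean square difference) were named, with the other named loci as a group. Members, lists and tests were chosen with earlier results of these data known.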

Additional observations from a re-analysis of the deposited data

How the results depend on the processing

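No result of either oxidase gene passed 0.05 under any of the 23 other settings tried, so no call was gained or lost. For AOX2 minus AOX1 within a comparison this was fixed in advance, since a sign-flip test on 3 arrays cannot go below 0.25. The same held for the test over both mutants once an array was left out. Of 269 recomputed values 85 equal the reported one, many by the construction of the setting. Of the 184 that moved, 147 kept their sign and 37 changed it, and the cause was not tested. Correlations of same-numbered deviations ran from -0.375 to 0.379. Shared RNA could give either sign, since mcd1-2 is on opposite sides of its comparisons, so pairing by replicate number was not settled. With the replicate block the values stayed, for example 0.24 for AOX1 in mcd1-2 (limma adjusted p = 0.895).

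Without centring AOX2 in the suppressor was 0.047. With the median of unnamed probes subtracted the indirect ratio of AOX1 was -0.079. With that of the probes nearest in spot number, AOX1 was 0.079 in mcd1-1 and -0.0053 in the indirect ratio, and AOX2 minus AOX1 over both mutants was 0.0094. With that of the other nuclear loci (added after seeing the data), AOX1 and AOX2 in mcd1-1 were 0.19 and 0.070. With the median of 3 spots AOX2 minus AOX1 was -0.033 in the suppressor and 0.021 over both mutants. With array weights AOX1 was -0.11 and AOX2 -0.033 over both mutants, and AOX1 -0.0083 in the indirect ratio; both were lower in mcd1-1, at -0.36 and -0.39 (limma adjusted p = 0.317 and 0.228), and mcd1-2 minus mcd1-1 was 0.51 and 0.71. With a block for arrays that share missing probes (also added) the indirect ratio of AOX1 was -0.051. With suppressor replicate 1 turned, AOX1 and AOX2 in the suppressor were 0.31 and 0.42.

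Leaving out single arrays, with the deposited sign of suppressor replicate 1, AOX1 and AOX2 ranged from -0.59 to 0.33 and from -0.55 to 0.077 in mcd1-1, from -0.025 to 0.51 and from 0.14 to 0.51 in mcd1-2, from -0.62 to 0.062 and from -0.49 to 0.22 in the suppressor, from -0.092 to 0.83 and from 0.25 to 0.88 for mcd1-2 minus mcd1-1, from -0.18 to 0.28 and from -0.11 to 0.20 over both mutants, and from -0.38 to 0.30 and from -0.16 to 0.55 in the indirect ratio. AOX2 minus AOX1 ranged from -0.25 to 0.035 in mcd1-1, from -0.084 to 0.37 in mcd1-2, from 0.01 to 0.16 in the suppressor and from -0.11 to 0.075 over both mutants. Signal over background was not used here, so dim spots could not be told from bright ones.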

Other observations

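The 3 spots of a probe differed least for AOX2 on mcd1-2 replicate 1, with an SD of 0.0251, and most for AOX2 on suppressor replicate 3, with an SD of 0.532. On that last array the deposited AOX2 spots read 0.35, -0.36 and -0.70, while the median SD over all probes there was 0.144. AOX1 had its widest spots on suppressor replicate 1, at -0.58, -0.31 and -1.23. Over the 9 arrays of both genes the median spot SD was 0.123, against SDs between arrays of one comparison from 0.37 to 1.00. The scatter of the oxidase ratios was thus larger between arrays than between spots. This also held for the array as a whole, where the median spot SD was 0.084 and the median SDs between arrays were 0.349 to 0.848.

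The mean of both genes varied over the 9 arrays with an SD of 0.624, against 0.158 for their difference divided by 2. Of the 2145 pairs formed by the 66 probes measured on each of the 9 arrays, 9 pairs shared their sign on every array after centring. The AOX1 and AOX2 pair was among them, though its deposited means differed in sign on mcd1-2 replicate 1.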
